A study of Mus musculus with 27 samples.

Results

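Notch receptors, their ligands and their target genes were followed here as a set of 10 genes among the 54446 in the deposited count tables. The receptors were Notch1, Notch2, Notch3 and Notch4, the ligands Jag1, Jag2 and Dll1, and the targets Hes1, Hey1 and Heyl. Members were taken by symbol through their Ensembl identifiers, and all 10 were found and passed a filter of at least 1 CPM in at least 4 libraries. CPM is a gene's read count after the reads in genes of every library are brought to a common sum.

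The study sequenced RNA of cells sorted from pancreatic islets or from skin-draining lymph nodes. The mice were 12 weeks old and of the NOD (non-obese diabetic) strain, which develops autoimmune diabetes. Ins2-CCL21 NOD mice (TG+) carry the chemokine CCL21 behind the promoter of insulin 2, which is active in beta cells, and NOD/ShiLtJ mice (TG-) do not carry it. By their labels, 27 libraries were islet CD45 lymphocytes (4 TG+ and 4 TG-), islet gp38-high cells (2 TG+ and 2 TG-), islet gp38-low cells (4 TG+ and 4 TG-) and fibroblastic reticular cells (FRCs) of lymph nodes (3 TG+ and 4 TG-). CD45 marks leukocytes, gp38 is the stromal surface protein podoplanin, and FRCs build the stromal network of the lymph node. Whether replicates are separate animals is not stated in the labels, and p-values therefore measure the spread between these libraries, part of which may be technical.

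The Notch pathway passes signals between touching cells. A Delta or Jagged ligand on one cell binds a Notch receptor on its neighbour, the gamma-secretase complex then frees the receptor's intracellular part, and this moves to the nucleus and joins the DNA-binding protein RBPJ to switch on Hes and Hey genes, which encode transcriptional repressors. Notch3 is known for its role in vascular smooth muscle and pericytes, Notch4 for its expression in endothelium, Notch1 for T cell fate and Notch2 for marginal zone B cells. In lymph nodes and the spleen, Delta ligands on fibroblastic stroma are known to engage Notch2 on B cells and dendritic cells.

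In 14 of 27 libraries the CD45 label and the level of Ptprc disagreed: 7 of 8 libraries labelled CD45 were low in Ptprc, and 7 with another label were high. Libraries are therefore called "labelled" by their names and were also sorted by markers into 4 classes. Whether labels or files were exchanged was not tested, and TG+ and TG- rest on the same labels, so every difference between genotypes holds only as far as these are right. A library was Ptprc-high above 100 CPM of Ptprc, the gene for CD45, Ccl21a-high above 1000 CPM of Ccl21a, the chemokine of T cell zone stroma, Msln-high above 100 CPM of Msln, the mesothelial surface protein mesothelin, and otherwise in the remaining class. Of the 8 Ptprc-high libraries, 5 were labelled FRC, 1 CD45, 1 gp38-high and 1 gp38-low. The 7 Ccl21a-high libraries comprised 4 labelled CD45 and 3 labelled gp38-low, and none labelled FRC. Each of the 4 populations gave 1 of the 4 Msln-high libraries. The 8 remaining libraries comprised 2 labelled CD45, 2 gp38-high, 3 gp38-low and 1 FRC, and had the highest sums of adventitial fibroblast markers. Ptprc lay at 169 to 679 CPM inside its class and at most 5.79 CPM outside, Ccl21a at 2162 to 5685 CPM against at most 5.28 CPM, and Msln at 573 to 830 CPM against at most 2.52 CPM, and the library nearest to a threshold was the one labelled FRC TG- replicate 4, with 169 CPM of Ptprc. The 19 libraries outside the Ptprc-high class are called stromal. Reads in genes numbered 8517844 to 25194443 per library, and 3 reads, the number that a count of 0 allows, were worth 0.119 to 0.352 CPM. The non-coding RNA Gm26917 took 20.8% to 36.0% of these reads in Ptprc-high and 9.78% to 22.2% in Ccl21a-high libraries, against 5.31% to 7.93% in the other classes, which lowers the CPM of all other genes there. Because the classes were set by measured genes, differences between them are described without a test. The number of members whose classes do not overlap is set beside the share of all 16797 genes passing the same filter that do not overlap. Fewer cells of a type and less RNA per cell cannot be told apart in such bulk libraries.

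Of the 10 members, 7 had an entry in a RefSeq table of promoters (build GRCm38.p6, the build of the files). The 3 entries below are shown because they belong to the receptor and ligand genes that stood higher, without overlap, in Ccl21a-high than in remaining libraries (Notch3 and Dll1) or in Ptprc-high than in stromal libraries (Notch4). Each is the gene's own strand, 223 bases that run from 250 to 28 bases before the RefSeq start. Notch3 is at chr17:32166918-32167140 on the minus strand, Dll1 at chr17:15376960-15377182 on the minus strand, and Notch4 at chr17:34564045-34564267 on the plus strand. Capitals mark matches to the N-box, CACNAG, the sequence that Hes proteins are known to bind.

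Notch3: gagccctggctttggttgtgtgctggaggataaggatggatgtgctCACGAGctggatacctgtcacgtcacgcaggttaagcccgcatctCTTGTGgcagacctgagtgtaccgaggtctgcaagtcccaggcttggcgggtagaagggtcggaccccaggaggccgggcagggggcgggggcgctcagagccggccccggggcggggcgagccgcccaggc
Dll1: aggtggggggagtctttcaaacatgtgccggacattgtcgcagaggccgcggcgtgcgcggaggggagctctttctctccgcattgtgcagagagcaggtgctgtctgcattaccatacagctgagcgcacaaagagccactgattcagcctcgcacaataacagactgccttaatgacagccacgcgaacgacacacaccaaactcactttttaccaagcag
Notch4: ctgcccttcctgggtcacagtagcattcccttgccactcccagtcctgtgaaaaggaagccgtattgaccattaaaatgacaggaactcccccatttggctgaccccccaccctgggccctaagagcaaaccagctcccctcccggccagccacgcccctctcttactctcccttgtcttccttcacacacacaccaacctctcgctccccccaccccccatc

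The search covered both strands for the RBPJ core TGGGAA, the N-box CACNAG and the E-box CACGTG, a site known for Hey proteins, and these motifs do not overlap each other. Notch3 held 2 N-box matches, at 204 bases before the start on its own strand and at 159 bases on the opposite strand. The other searches gave 0 matches in these windows. Among 32851 promoter windows of the same length, 19.6% held the RBPJ core, 33.7% the N-box and 5.11% the E-box.

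Notch3 (ENSMUSG00000038146.7, chromosome 17) varied more between classes than any other receptor. In the 8 Ptprc-high libraries it ranged between 1.71 and 5.31 CPM with a median of 2.63 CPM. In the 7 Ccl21a-high libraries it ranged between 1142 and 1632 CPM with a median of 1295 CPM. The 4 Msln-high libraries had 18.28, 18.99, 22.16 and 23.63 CPM, and the 8 remaining libraries 62.2 to 137.5 CPM with a median of 92.0 CPM. All 4 classes were separate for this gene, in the order Ccl21a-high, remaining, Msln-high and Ptprc-high, with no library out of place. The median in Ccl21a-high libraries was 14.1 times that in remaining libraries and 62.9 times that in Msln-high libraries.

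Ccl21a-high libraries also carried the most RNA of pericyte and smooth muscle markers. All 11 markers of that list exceeded 1 CPM in at least 1 of these libraries, against 10 of 11 in each other class. Their sum was 2957 to 4332 CPM, against 344 to 585 CPM in Msln-high and 513 to 640 CPM in remaining libraries. The sum of 7 fibroblast markers was 16120 to 22907 CPM in the same Ccl21a-high libraries, against 31356 to 43016 CPM in remaining libraries. The part of mural cells in the level of Notch3 was not tested.

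Notch4 (ENSMUSG00000015468.14, chromosome 17) was highest in Ptprc-high libraries. It ranged between 15.3 and 38.9 CPM in Ptprc-high libraries with a median of 17.5 CPM, and between 0.0706 and 3.23 CPM in the 19 stromal libraries with a median of 1.07 CPM. Every Ptprc-high library stood above every stromal library, by a ratio of medians of 16.4, and of 9.16 when reads on both strands were counted. The highest Ptprc-high libraries, labelled FRC TG- replicate 4 and gp38-high TG- replicate 2, had 38.9 and 33.0 CPM. The other 6 lay between 15.3 and 20.4 CPM. Acinar markers summed to 3029 and 2279 CPM in that pair of libraries, against 238 to 1029 CPM in the other 6. In remaining libraries the acinar sum was 81.0 to 9068 CPM, and Notch4 was 0.0706 to 1.41 CPM. The part of acinar RNA in Notch4 was not tested. The sum of 12 endothelial markers was 67.2 to 164.4 CPM in Ptprc-high and 42.8 to 86.0 CPM in Ccl21a-high libraries. It was 239 to 414 CPM in Msln-high and 148 to 325 CPM in remaining libraries. Of the 12, 6 exceeded 1 CPM in at least 1 Ptprc-high library. This number was 6 in remaining libraries and 8 each in Ccl21a-high and Msln-high libraries. The part of endothelial cells in Notch4 was not tested. Notch4 in stromal libraries rested on 1 to 31 reads.

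Notch1 (ENSMUSG00000026923.15, chromosome 2) and Notch2 (ENSMUSG00000027878.11, chromosome 3) were present in all 27 libraries. Notch1 ranged between 123 and 208 CPM in Ptprc-high libraries (median 173), 159 and 224 CPM in Ccl21a-high libraries (median 193) and 59.4 and 184 CPM in remaining libraries (median 126). The 4 Msln-high libraries had 25.6, 27.4, 76.2 and 212 CPM, so that class spanned both the lowest levels of the series and a level close to the highest ones. Notch2 lay between 300.3 and 594 CPM in Ptprc-high libraries, 336 and 442 CPM in Ccl21a-high libraries, 439 and 698 CPM in Msln-high libraries and 414 and 657 CPM in remaining libraries. For both receptors all pairs of classes compared overlapped on the CPM scale.

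Per kilobase of exon, the receptors can be set against each other. Notch3 made up 78.1% of the summed CPM per kilobase of the 4 receptors in the median Ccl21a-high library, with a range of 73.1% to 80.6%. In the other classes Notch2 came first, with a median of 74.1% in Ptprc-high, 88.5% in Msln-high and 72.8% in remaining libraries. Second place differed too: Notch1 took it in Ptprc-high libraries at 21.7%, and Notch3 in remaining libraries at 17.01%, where Notch1 stood at 10.95%. Notch4 reached 4.50% in the median Ptprc-high library, and Notch3 0.490% there.

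**Figure D1:**
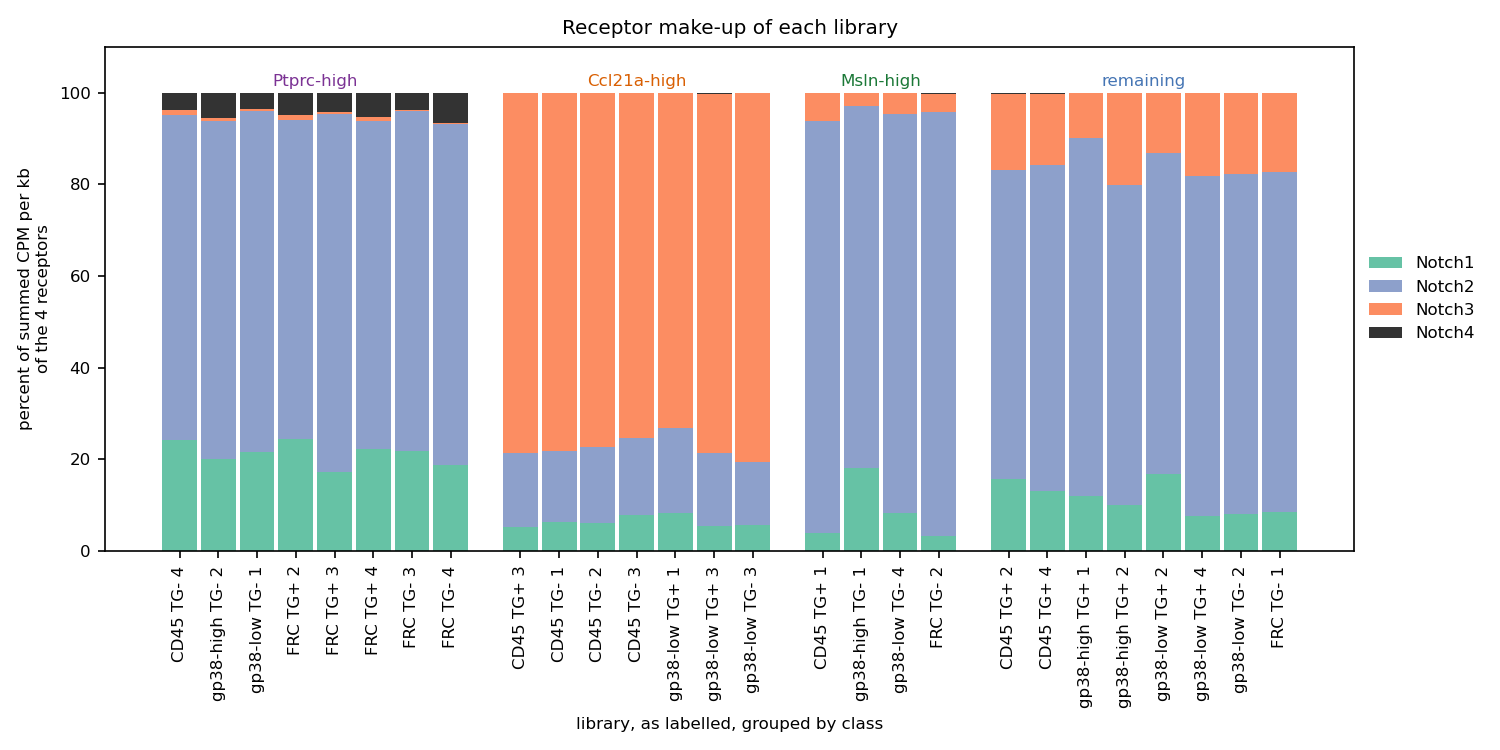
Share of each receptor in the summed CPM per kilobase of exon of Notch1 to Notch4, in percent, with 1 bar for each of the 27 libraries named as labelled and grouped by class. The 7 Ccl21a-high bars are 73.1% to 80.6% Notch3, and every other bar is mostly Notch2.

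Jag1 (ENSMUSG00000027276.7, chromosome 2) was the most abundant of the 3 ligands per kilobase in every stromal class. It ranged between 4.02 and 9.86 CPM in Ptprc-high libraries, with a median of 5.37 CPM, and between 61.7 and 307 CPM in the 19 stromal libraries, with a median of 138 CPM. No stromal library came near the Ptprc-high range. Among stromal classes Jag1 was 125 to 307 CPM in Ccl21a-high libraries, 61.7, 68.3, 81.6 and 129 CPM in Msln-high libraries and 73.2 to 166 CPM in remaining libraries, and these ranges overlapped.

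Dll1 (ENSMUSG00000014773.13, chromosome 17) separated the remaining class from the other stromal classes. It had 13.7 to 28.5 CPM in Ccl21a-high libraries (median 20.7), 7.95, 10.7, 15.1 and 18.0 CPM in Msln-high libraries, and 1.0 to 4.604 CPM in remaining libraries (median 2.46). The ratio of medians to the remaining class was 8.40 for Ccl21a-high and 5.25 for Msln-high libraries, without overlap in either case. Ptprc-high libraries, at 5.30 to 9.63 CPM, overlapped Msln-high libraries and stood above every remaining library. Per kilobase Dll1 led the ligands in Ptprc-high libraries, at a median of 1.66 CPM per kilobase against 0.922 for Jag1 and 0.843 for Jag2. Jag2 (ENSMUSG00000002799.6, chromosome 12) stayed at or under 7.51 CPM everywhere, and its classes overlapped in all 4 comparisons.

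Hes1, Hey1 and Heyl encode repressors induced by Notch signalling, though Hes1 also answers to other pathways. Hes1 (ENSMUSG00000022528.8, chromosome 16) came first of the targets per kilobase in all 4 classes. It had 6.22 to 10.9 CPM in Ptprc-high libraries (median 8.46), against 15.1 to 91.0 CPM in stromal libraries (median 62.5). The gap between the highest Ptprc-high and the lowest stromal library was small, since the Msln-high libraries had 15.1, 22.7, 35.7 and 67.0 CPM. Ccl21a-high libraries had 53.9 to 91.0 CPM and remaining libraries 36.2 to 71.9 CPM, which overlapped.

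Heyl (ENSMUSG00000032744.4, chromosome 4), like Notch3, took a separate level in each class. It was listed at 0 to 0.761 CPM in Ptprc-high libraries, on 0 to 10 reads, at 51.1 to 78.4 CPM in Ccl21a-high libraries, at 3.83, 5.95, 6.13 and 7.46 CPM in Msln-high libraries and at 26.6 to 50.3 CPM in remaining libraries. The nearest libraries of the Ccl21a-high and remaining classes, at 51.1 and 50.3 CPM, were almost level. The ratio of medians between these classes was 1.78, and between Ccl21a-high and Msln-high libraries 11.3.

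Hey1 (ENSMUSG00000040289.8, chromosome 3) was scarcer. It had 0.233 to 0.8501 CPM in Ptprc-high libraries, on 3 to 12 reads, 5.68 to 12.4 CPM in Ccl21a-high libraries (median 8.57), 0.526, 0.633, 0.993 and 1.10 CPM in Msln-high libraries and 1.41 to 3.23 CPM in remaining libraries (median 2.37). The 3 stromal classes did not overlap, with a ratio of medians of 3.61 between Ccl21a-high and remaining and of 10.5 between Ccl21a-high and Msln-high libraries. Ptprc-high and Msln-high libraries shared the bottom of the range.

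**Figure D2:**
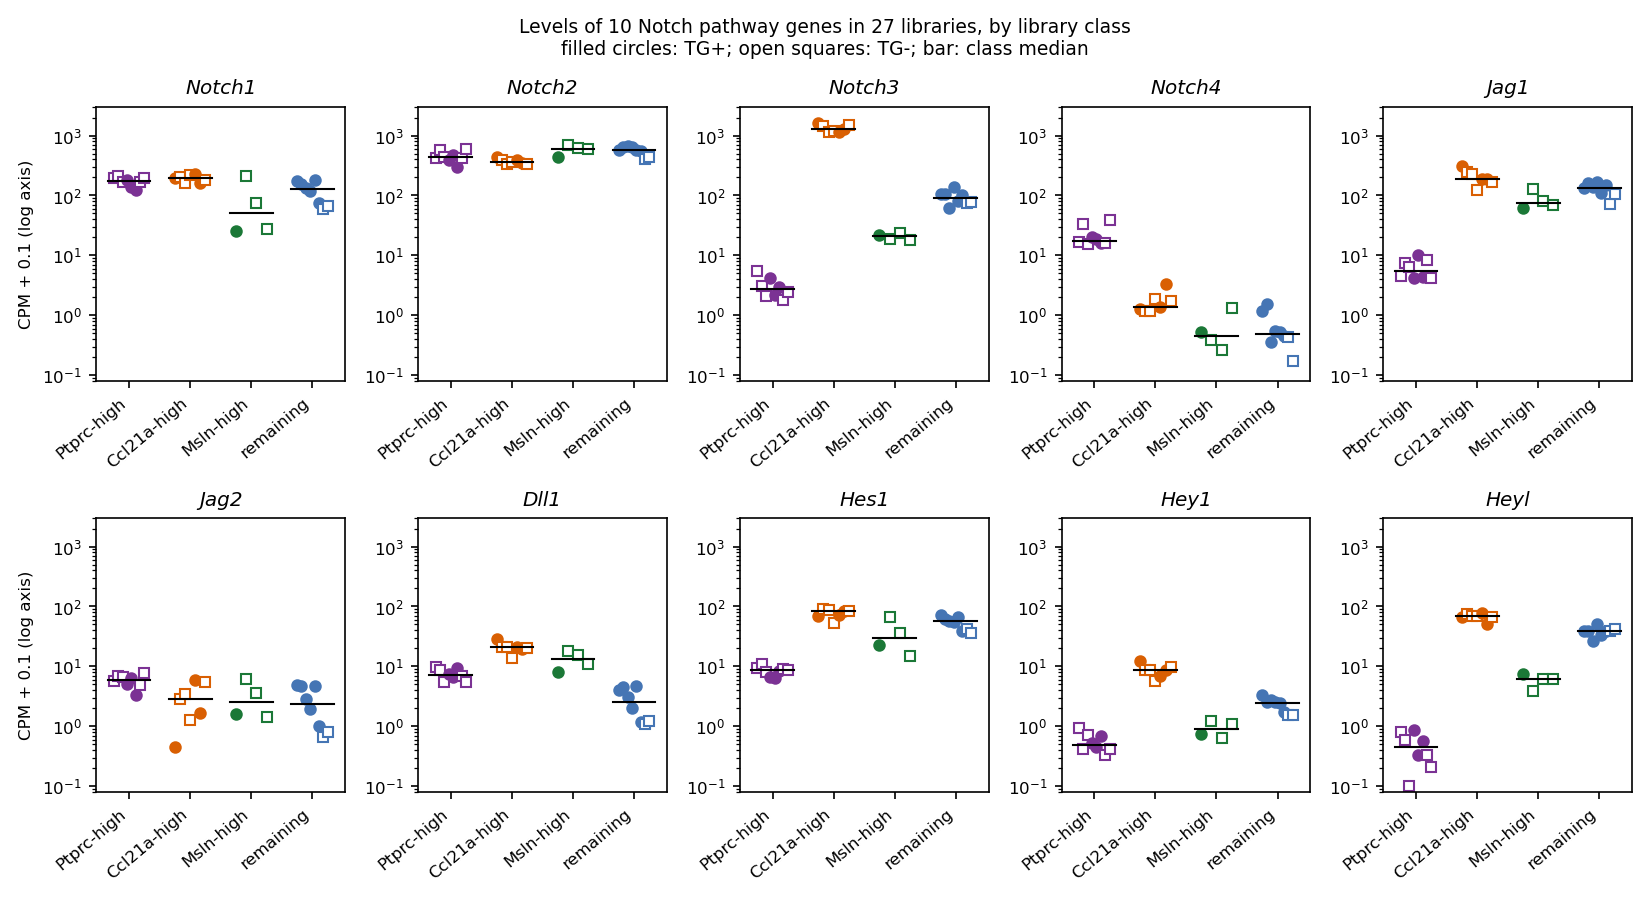
CPM plus 0.1 of each of the 10 genes on a log axis, with 1 point per library, classes along the horizontal axis, filled circles for TG+, open squares for TG- and bars at class medians. Notch3 and Heyl take 4 separate levels, Notch4 is highest in the Ptprc-high libraries, and Notch1 and Notch2 overlap across classes.

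Counted together, 1 of 10 members (Notch4) was higher without overlap in Ptprc-high than in stromal libraries, against 12.5% of all genes, and 4 of 10 (Notch3, Jag1, Hes1 and Heyl) were lower, against 18.9% of all genes. Between Ccl21a-high and remaining libraries 4 of 10 (Notch3, Dll1, Hey1 and Heyl) were higher, against 9.73% of all genes, and 0 of 10 were lower, against 15.2%. Between Msln-high and remaining libraries 1 of 10 (Dll1) was higher, against 19.8%, and 3 of 10 (Notch3, Hey1 and Heyl) were lower, against 7.83%. Between Ccl21a-high and Msln-high libraries 3 of 10 (Notch3, Hey1 and Heyl) were higher, against 10.1%, and 0 of 10 lower, against 30.2%. The median log2 ratio of all these genes between class medians was -0.40, -0.12, 0.14 and -0.27 in the same 4 comparisons, so CPM was shifted somewhat between classes. On TMM-scaled CPM, in which it was -0.14, -0.02, 0.00 and 0.00, Notch2 was also lower in Ccl21a-high than in remaining libraries, and Jag1, Dll1 and Hes1 were also higher in Ccl21a-high than in Msln-high libraries. The other members kept their places in these 4 comparisons. With all 3 thresholds doubled, the library labelled FRC TG- replicate 4 joined the remaining class, and then 0 members were higher or lower without overlap in Ptprc-high libraries.

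The other genes of the pathway were 60 listed genes, of which 54 passed the filter. Between Ptprc-high and stromal libraries 9 of 54 were higher and 11 lower without overlap, against 12.5% and 18.9% of all genes, so both shares were near those of all genes. The Fringe glycosyltransferases, which change the ligand preference of Notch receptors, split: Lfng had 116 to 147 CPM and Mfng 33.0 to 59.1 CPM in Ptprc-high libraries, against at most 43.5 CPM of Lfng and 3.44 CPM of Mfng in stromal libraries, while Rfng was lower at 10.5 to 15.9 CPM, against 16.57 to 39.96 CPM. Between Ccl21a-high and remaining libraries 5 of 54 were higher and 12 lower, against 9.73% and 15.2% of all genes. The ligand Dll4 had 26.0 to 69.0 CPM in Ccl21a-high libraries and at most 0.544 CPM in remaining libraries, and the target Hey2 had 6.319 to 27.01 CPM against 0.223 to 1.73 CPM. The inhibitor-like ligand Dlk1 and the secreted Ccn3 went the other way, with 1.95 to 7.42 and 1.56 to 6.57 CPM in Ccl21a-high libraries, against 31.4 to 77.6 and 114 to 338 CPM in remaining libraries. These genes were named after their values were seen. Msln-high against remaining libraries gave 9 of 54 higher and 7 lower, against 19.8% and 7.83% of all genes, and Ccl21a-high against Msln-high libraries 5 higher and 19 lower, against 10.1% and 30.2%. Rbpj itself and the coactivators Maml1 and Maml2 overlapped in these comparisons, while the coactivator Maml3 was lower in Ccl21a-high libraries, at 1.36 to 6.70 CPM, against 7.32 to 19.7 CPM in Msln-high and 18.6 to 32.1 CPM in remaining libraries.

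In the remaining class, Notch1, Notch2, Hes1, Jag2, Dll1 and Hey1 were lowest in the 3 libraries with the lowest sums of ductal epithelium markers. The 3 remaining libraries lowest in Notch1, labelled gp38-low TG- replicate 2, FRC TG- replicate 1 and gp38-low TG+ replicate 4, had 59.4, 67.0 and 75.6 CPM of Notch1, and their 10 ductal epithelium markers summed to 354, 807 and 762 CPM. In the other 5 remaining libraries Notch1 was 120 to 184 CPM and the ductal sum 1617 to 3832 CPM. The same 3 libraries were lowest in Hes1, at 36.2 to 41.5 CPM against 55.6 to 71.9 CPM, in Jag2, at 0.558 to 0.892 CPM against 1.87 to 4.84 CPM, and in Dll1, at 1.0 to 1.13 CPM against 1.91 to 4.604 CPM. They were also lowest in Notch2, at 414 to 561 CPM against 567 to 657 CPM, and in Hey1, at 1.41 to 1.65 CPM against 2.30 to 3.23 CPM. Jag1 overlapped, at 73.2 to 151 CPM in these 3 libraries against 108 to 166 CPM in the other 5. Markers of acinar cells summed to 81.0 to 268 CPM in these 3 libraries and to 323 to 9068 CPM in the other 5. The share of all genes that were lowest in these 3 libraries was not counted. The members named here therefore cannot be said to differ from other genes in this respect. Both TG- libraries of this class were among the 3. When the class was split by genotype, 28.5% of all genes were higher and 11% lower without overlap in TG+ libraries.

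Among Msln-high libraries, the library labelled gp38-high TG- replicate 1 had the highest ductal sum, 4610 CPM, and the highest levels of Notch1 (212 CPM), Hes1 (67.0 CPM), Jag2 (6.12 CPM) and Dll1 (18.0 CPM) of the 4. It was also the highest of them in Notch2 (698 CPM), Jag1 (129 CPM) and Hey1 (1.10 CPM). The libraries labelled CD45 TG+ replicate 1 and FRC TG- replicate 2, with ductal sums of 1518 and 1417 CPM, had 25.6 and 27.4 CPM of Notch1. Keratins 7, 8, 18 and 19, which are in the ductal list, are also made by mesothelial cells. Notch3 and Heyl did not follow the ductal sums: in the remaining class Notch3 was 62.2 CPM in the library labelled gp38-high TG+ replicate 1, whose ductal sum was 3117 CPM, and 73.4 CPM in the library with the lowest sum, and Heyl was 26.6 and 38.5 CPM in the same pair. The part of epithelial RNA in the levels of the members was not tested. In Ccl21a-high libraries the ductal sum was 44.8 to 79.0 CPM and 9 of 10 acinar markers stayed under 1 CPM, while Notch1 was 159 to 224 CPM.

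**Figure D3:**
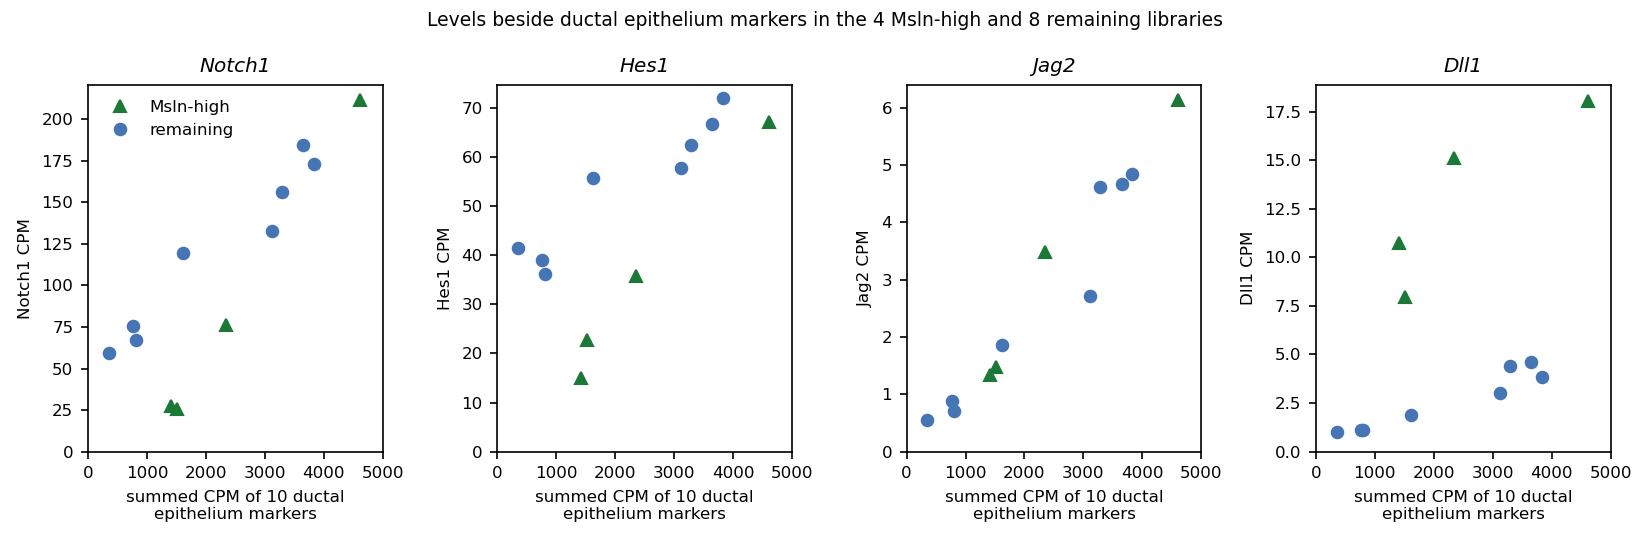
CPM of Notch1, Hes1, Jag2 and Dll1 against the summed CPM of 10 ductal epithelium markers in the 4 Msln-high libraries (triangles) and the 8 remaining libraries (circles). The Msln-high library with the largest ductal sum, 4610 CPM, is the highest of its class in all 4 genes, the 3 remaining libraries with a ductal sum under 1000 CPM are the lowest of theirs, and Dll1 is higher in every Msln-high than in every remaining library.

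Across the 19 stromal libraries the levels of several members ran in parallel, which is a description of points that fall into 3 classes and share a scale. Pearson's r of log2 CPM was 0.96 between Notch3 and Hey1, 0.85 between Notch3 and Heyl and 0.93 between Notch1 and Hes1. Notch2 ran the other way, with r of -0.76 to Notch3, -0.64 to Hey1 and -0.59 to Heyl. Among genes with at least 10 CPM in at least 3 of these libraries, those most like Notch3 were Ttyh3, Thbs2 and Col23a1 (r = 0.99 each), and those most like Heyl were Cacng7 (0.98), Fap (0.98) and Emilin1 (0.97). Dll1 was most like Lama3 (0.98), Zfp532 (0.98) and Nos1ap (0.98), and St5 (0.97) and Zfp691 (0.97) were among the genes most like Hey1. Notch1 was most like Arhgap24 (0.96), Tmem51 (0.94) and Evl (0.93), and Hes1 most like Arhgap24 (0.94), Traf4 (0.93) and Notch1 (0.93). The genes nearest to Notch2 were Nhsl1 (0.95), Sestd1 (0.95) and Dcx (0.94), and those nearest to Jag1 were Lrrc8b (0.93), Flrt3 (0.93) and Vegfa (0.92). Jag2, the scarcest of these 9 genes, had the weakest neighbours, mt-Nd1 (0.80), Sdc1 (0.78) and Rrp15 (0.77). Notch4 was too low in stromal libraries to be compared.

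The study set Ins2-CCL21 against non-transgenic NOD mice, and the effect of the transgene on the members was tested first with the library class in the fit. Over all 27 libraries edgeR's quasi-likelihood test with Benjamini-Hochberg adjustment called 0 of 10 members and 0 of 18393 genes (0%), although 1779 genes had an unadjusted p under 0.05. The counts by limma-voom and by DESeq2 were 0 as well. Log2 differences, TG+ minus TG-, ran between -0.14 and 0.26 over the 10 members with a median of 0.02, and 5 were above 0 and 5 below, beside a median of 0.00 over all genes. The members with the smallest p were Dll1 (0.26 ± 0.20 SE, adjusted p = 0.601), Hes1 (-0.14 ± 0.16, adjusted p = 0.740) and Jag1 (0.12 ± 0.15, adjusted p = 0.762), by the same edgeR test. Notch3, whose levels differed so widely between classes, had a log2 difference of 0.08 ± 0.17.

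Within classes the picture was alike where both genotypes had several libraries. In Ccl21a-high (3 TG+ and 4 TG-) and Ptprc-high libraries (3 TG+ and 5 TG-) all 10 members overlapped between genotypes. Of all genes, 1.51% were higher and 0.732% lower without overlap in TG+ libraries of the Ccl21a-high class, and 0.375% and 2.39% in those of the Ptprc-high class. In Ccl21a-high libraries Notch3 was 1142, 1295 and 1632 CPM in TG+ libraries, against 1166, 1215, 1455 and 1480 CPM in TG- libraries. Dll1 was 19.3, 20.8 and 28.5 CPM in TG+ libraries, against 13.66, 20.29, 20.70 and 20.97 CPM in TG- libraries of that class. The remaining class held 6 TG+ and 2 TG- libraries, and 5 of 10 members (Notch1, Notch2, Jag1, Jag2 and Hey1) were higher in all 6 TG+ libraries, against 28.5% of all genes. Notch2 was 561 to 657 CPM there, against 414 and 445 CPM in the TG- libraries, and Jag1 was 108 to 166 CPM, against 73.2 and 104.5 CPM. Both TG- libraries were among the 3 with low ductal and acinar sums, so genotype and epithelial RNA cannot be told apart in that class. The Msln-high class held 1 TG+ library, which allows no comparison of genotypes.

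Within the labelled populations, where classes were mixed, edgeR also called 0% of genes. For libraries labelled CD45 this was 0 of 14871 genes (1402 with an unadjusted p under 0.05), for gp38-high 0 of 17937 (920), for gp38-low 0 of 14095 (273) and for FRC 0 of 13819 (981). DESeq2 called 427, 40, 1 and 549 genes in these 4 populations and limma-voom 6150, 0, 0 and 0, and DESeq2 called no member there, while limma-voom called Notch2 higher and Notch3, Dll1, Hey1 and Heyl lower in the CD45 libraries. Hey1 and Heyl were not tested in the FRC libraries, where too few libraries reached the minimum count of the filter.

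In libraries labelled FRC, Jag1 had 4.02, 9.86 and 4.26 CPM in TG+ replicates 2, 3 and 4, against 104.5, 68.3, 8.31 and 4.16 CPM in TG- replicates 1 to 4. The 2 high TG- libraries were of the remaining and Msln-high classes, and the other 5 were Ptprc-high. The log2 difference was -2.78 ± 1.17 SE (adjusted p = 0.696, edgeR). Notch3 followed it with -2.89 ± 1.43 and Hes1 with -1.12 ± 0.62 (edgeR adjusted p = 0.721 and 0.765), and the other 5 tested members lay between -0.24 and 0.65.

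In libraries labelled CD45, Notch4 had 0.422, 1.10, 1.18 and 1.41 CPM in TG+ replicates 1 to 4, against 1.07, 1.08, 1.79 and 16.6 CPM in TG- replicates 1 to 4. TG- replicate 4 was the only Ptprc-high library with this label. The log2 difference of Notch4 was -2.75 ± 1.13 SE (adjusted p = 0.512, edgeR), and -0.49 without that library. Notch1 (-0.74 ± 0.58) and Dll1 (-0.68 ± 0.68) came next, with edgeR adjusted p of 0.666 and 0.733, and the other 7 members lay between -1.10 and 0.20. Without the library labelled CD45 TG+ replicate 3 the fit called 519 genes and Dll1 among them. That library was the only Ccl21a-high one of the TG+ group, while TG- replicates 1, 2 and 3 were Ccl21a-high. The share of all genes called in this fit is not given here, so the call of Dll1 cannot be set beside it.

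In libraries labelled gp38-high, Notch4 had 0.252 and 0.437 CPM in TG+ libraries, against 0.287 and 33.0 CPM in TG- libraries. Its log2 difference of -5.81 ± 2.69 SE (adjusted p = 0.663, edgeR) turned to 0.55 without TG- replicate 2, the Ptprc-high library. Heyl had 26.6 and 50.3 CPM in TG+ libraries, both of the remaining class, against 3.83 and 0.495 CPM in TG- libraries, of which the first was Msln-high and the second Ptprc-high, and a log2 difference of 4.34 ± 2.09 (edgeR adjusted p = 0.663). Dll1 followed with -2.34 ± 1.42, and the other 7 members lay between -1.53 and 3.37.

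In libraries labelled gp38-low, Notch4 had 1.26, 0.432, 3.23 and 0.343 CPM in TG+ replicates 1 to 4, against 15.3, 0.335, 1.64 and 0.158 CPM in TG- replicates 1 to 4. Its log2 difference was -1.77 ± 1.46 SE (adjusted p = 0.999, edgeR), and 0.74 without TG- replicate 1, the Ptprc-high library. Jag1 (0.82 ± 0.81) and Hes1 (0.49 ± 0.66) followed, and the other 7 members lay between -0.43 and 0.65.

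**Figure D4:**
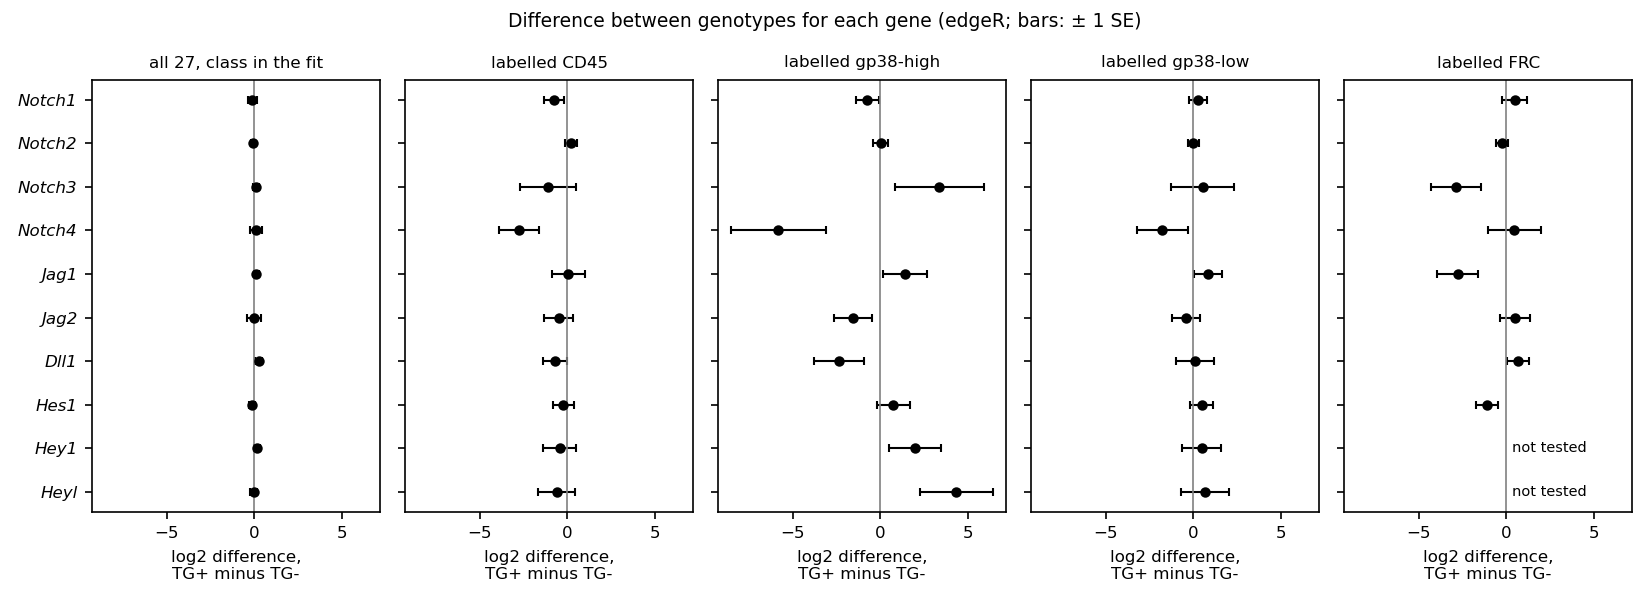
Log2 difference of TG+ minus TG- for each of the 10 genes, with bars of 1 SE, in the fit of all 27 libraries with class as a term (left) and in the fits of each labelled population. With class in the fit all 10 points lie between -0.14 and 0.26, and in the labelled populations they lie between -5.81 and 4.34 with wider errors.

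Labelled gp38-high and gp38-low cells of the islets were compared with genotypes weighted equally. edgeR called 0 of 18396 genes (0%), with 509 at an unadjusted p under 0.05, while DESeq2 called 147, Notch3 among them as lower, and limma-voom 0. Notch3 was 62.2 and 137.5 CPM in gp38-high TG+ libraries and 18.99 and 3.03 CPM in gp38-high TG- libraries, against 1142, 81.58, 1295 and 102.3 CPM in gp38-low TG+ libraries and 2.001, 73.4, 1480 and 23.6 CPM in gp38-low TG- libraries. The 3 gp38-low libraries above 1000 CPM were Ccl21a-high, a class that no gp38-high library belonged to. The log2 difference was -4.35 ± 1.70 SE for Notch3, -1.86 ± 0.87 for Hey1 and -2.41 ± 1.46 for Heyl (adjusted p = 0.9999 for all 3, edgeR). The other 7 members lay between -1.18 and 0.31.

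The labels call the islet gp38 cells FRC-like, and labelled gp38-low cells were also compared with labelled FRCs of the lymph node. edgeR called 0 of 18396 genes (0%), but 6639 genes had an unadjusted p under 0.05 and the smallest adjusted p was 0.0943, while DESeq2 called 4777 and limma-voom 8632. Hes1 was 73.2, 66.6, 83.0 and 39.1 CPM in gp38-low TG+ libraries and 8.003, 41.5, 83.2 and 35.7 CPM in gp38-low TG- libraries, against 6.63, 6.22 and 8.17 CPM in FRC TG+ libraries and 36.2, 15.1, 8.86 and 8.76 CPM in FRC TG- libraries. The log2 difference was 2.16 ± 0.50 SE for Hes1, 5.86 ± 1.48 for Notch3 and 2.69 ± 0.75 for Hey1 (adjusted p = 0.0943 for all 3, edgeR). Jag1, at 2.75 ± 0.77, and Heyl, at 3.89 ± 1.30, had the same adjusted p, and Notch4 was -2.96 ± 1.22 (edgeR adjusted p = 0.109). In this comparison 5 of 7 FRC libraries and 1 of 8 gp38-low libraries were Ptprc-high. Without the gp38-low library of that class (TG- replicate 1) edgeR called 5403 genes and 6 members. Notch3, Jag1, Hes1, Hey1 and Heyl were higher and Notch4 lower. No gp38-low library was then Ptprc-high, against 5 of 7 FRC libraries. Without FRC TG- replicate 1, a library of the remaining class, edgeR called 1369 genes and the same members except Notch4. The share of all genes called in these reduced fits is not given here, so the member counts cannot be set beside it.

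**Figure D5:**
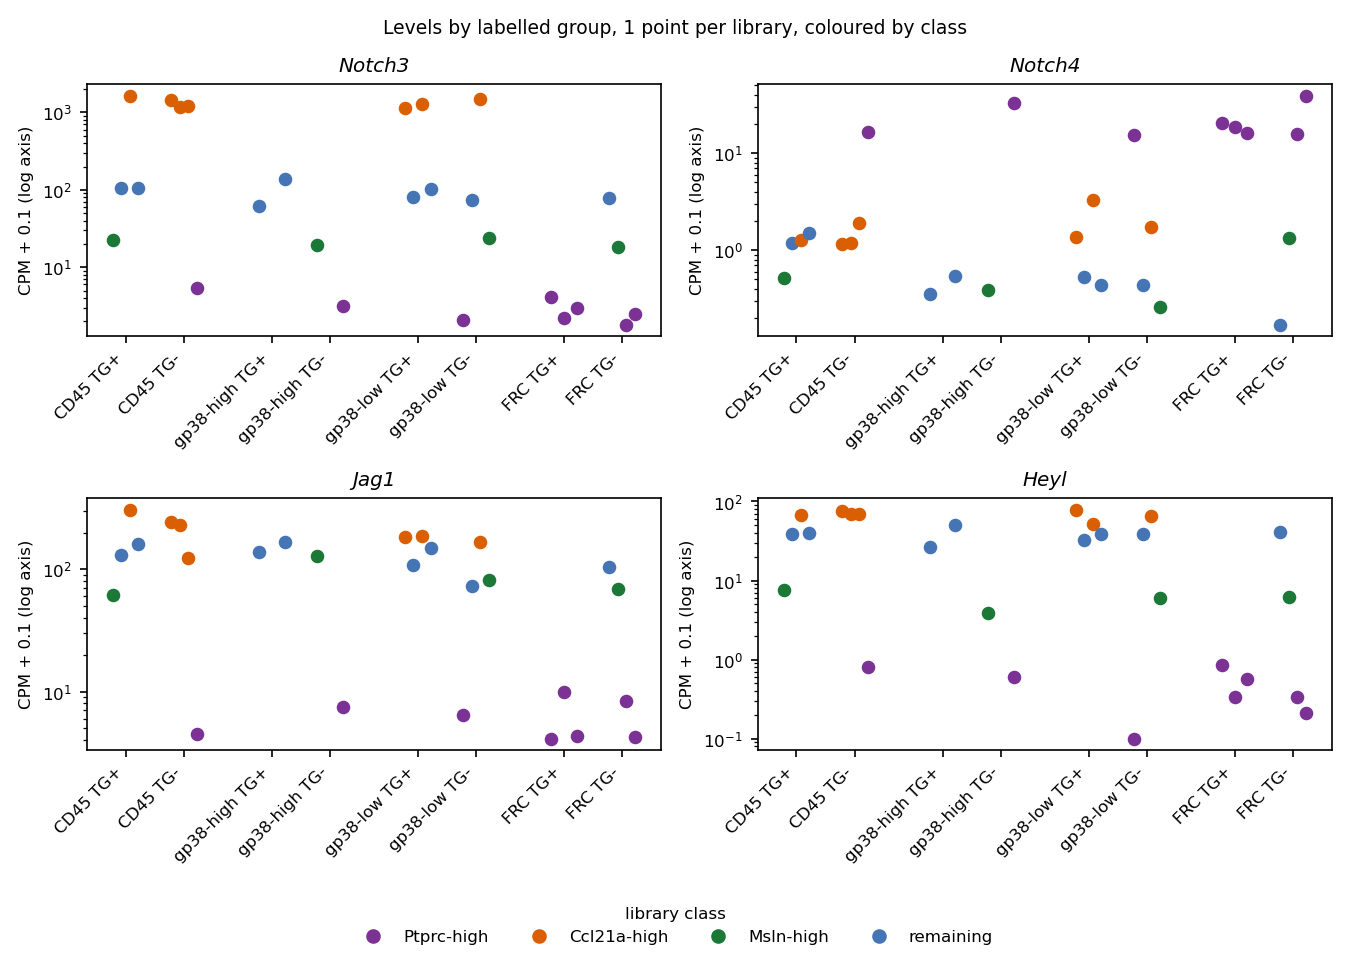
CPM plus 0.1 of Notch3, Notch4, Jag1 and Heyl on a log axis, with 1 point per library, by labelled population and genotype (TG+ left of TG-) and coloured by class. Points of 1 class lie at a like level of Notch3 and of Heyl whatever their label and genotype, and the Ptprc-high points are the highest in Notch4 and the lowest in Jag1.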

How the data were processed

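Cells were sorted into TRIzol, and their total RNA was depleted of ribosomal RNA and prepared with KAPA RNA HyperPrep kits, per the labels' protocols. The submitters' processing notes name bcl2fastq 2.17, Trim Galore 0.4.3, STAR 2.5.2a and mm10. No release of the gene annotation is given in the sources used here. As deposited by the authors, each table holds raw read counts per gene, for both strands together and for each strand. Reverse-strand counts were used, since forward-strand reads were 6.67% to 15.3% of both. The first 4 lines of each table, reads in no gene, were left out. Of 54446 identifiers, 54409 matched GENCODE M21 without version, which gave symbols and exon lengths. The members, gene lists and classes were chosen with earlier results of these data known.

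Tests used edgeR 4.0.16 (R 4.3.3) with TMM factors, filterByExpr, the robust quasi-likelihood F test, and p-values adjusted over all genes by Benjamini and Hochberg at 0.05. CD45, gp38-low and FRC libraries were each fitted alone. The gp38-high effect shared the spread of the 12 islet gp38 libraries, and population differences used the 19 gp38 and FRC libraries. An SE is the size of the log2 difference over the root of F. On simulated counts with large changes the test found 188 of 197 changed genes with class in the fit, beside 11 false calls. For gp38-low libraries it found 198 of 199, beside 10 false calls. The gp38-low counts were simulated with the same spread for every gene and without the mixture of classes. They therefore do not show what the test could find in the real gp38-low libraries. No 2 libraries agreed within sampling noise: the closest pair had a median chi-square of 1.41, against 0.455 from sampling. Likeness was Pearson's r of log2 CPM (prior count 2) over stromal libraries, and 1 gene near Hey1 is not reported here. Named genes were all members and, of the pathway lists, those the text marks. Alternatives were DESeq2 1.42.0, limma-voom (limma 3.58.1), other scalings, strands, filters and thresholds, a replicate block, and each library left out.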

Additional observations from a re-analysis of the deposited data

Results flagged for a closer look

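Dixon's criterion was applied to 90 groups of 4 or more libraries (10 members in the labelled groups and in the classes). In these, 9 values lay farther from the others of their group than it allows. Chance gives this in about 1 of 20 groups of independent, normally distributed values. The groups here share libraries, and the labelled ones mix classes, so that rate need not hold. Of the 9, 8 were in labelled groups. In libraries labelled CD45 TG+, replicate 3 had 1631.9 CPM of Notch3, with the next at 105 CPM, and 28.5 CPM of Dll1, with the next at 7.95 CPM. This library was the only Ccl21a-high one of its group. In gp38-low TG-, replicate 3, also the only Ccl21a-high library of its group, had 1479.7 CPM of Notch3 and 9.60 CPM of Hey1, with the next at 73.4 and 1.45 CPM. Notch4 stood apart in CD45 TG- replicate 4 at 16.6 CPM and in gp38-low TG- replicate 1 at 15.3 CPM, the only Ptprc-high libraries of their groups. Heyl was 0.708 CPM in that CD45 TG- replicate 4, with the next at 68.4 CPM. In FRC TG-, Heyl was 41.2 CPM in replicate 1, the only library of the remaining class there, with the next at 6.13 CPM. Within a class, 1 value stood apart: Notch4 at 3.23 CPM in the Ccl21a-high library labelled gp38-low TG+ replicate 3, on 31 reads, with the next at 1.79 CPM.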

How the results depend on the processing

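edgeR called 0 genes in each of 7 comparisons also with RLE size factors, without the low-count filter, with unstranded counts and without Gm26917, a non-coding RNA that took 5.31% to 36.0% of reads in genes. With a replicate block it called 0 in each of the 6 comparisons that allow one. Libraries of the same replicate number had correlations of deviations from -0.251 to 0.661. The highest was that of gp38-low replicate 3, where both libraries were Ccl21a-high. The deviations also hold the mixture of classes, so they cannot show whether the numbers pair the libraries. DESeq2 called 427 genes for CD45, 40 for gp38-high, 1 for gp38-low, 549 for FRC, 147 for gp38-high against gp38-low (Notch3 lower) and 4777 for gp38-low against FRC, 26.0% of all genes, with Notch3, Jag1, Hes1, Hey1 and Heyl higher and Notch4 lower. limma-voom called 6150 genes for CD45, 41.4% of all, with Notch2, Notch3, Dll1, Hey1 and Heyl among them, and 8632 for gp38-low against FRC, 46.9% of all, with the same 6 members. With class in the fit both tools called 0 genes. Leaving out 1 library gave 0 to 519 genes for CD45 (519 without TG+ replicate 3) and 0 to 5403 for gp38-low against FRC (5403 without gp38-low TG- replicate 1, 1369 without FRC TG- replicate 1). The log2 difference of Notch4 then ranged from -6.73 to 0.55 in gp38-high and from -2.81 to 0.74 in gp38-low, and that of Hes1 in gp38-low was -0.0387 with limma-voom. The cause of the differences between tools was not tested.

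Of the classes, doubled thresholds moved the library labelled FRC TG- replicate 4 from Ptprc-high to remaining, after which 0 members were higher and 0 lower without overlap in Ptprc-high libraries, and 0 lower in Msln-high than in remaining libraries. On TMM-scaled CPM 1 member was lower in Ccl21a-high than in remaining libraries and 6 higher than in Msln-high libraries. Leaving out 1 library gave 0 to 1 lower in Ccl21a-high than in remaining libraries (1 without CD45 TG+ replicate 3 or gp38-low TG- replicate 2), and 3 to 6 higher (6 without CD45 TG- replicate 3 or gp38-high TG- replicate 1) and 0 to 1 lower (1 without CD45 TG+ replicate 1 or replicate 3) than in Msln-high libraries. With unstranded counts Notch4 was also higher without overlap in Ccl21a-high than in remaining libraries (ratio of medians 3.41) and than in Msln-high libraries (2.63). Without Gm26917 Jag1 was also higher without overlap in Ccl21a-high than in Msln-high libraries (2.87). Of 40 class medians, 1 moved by more than the spread of its class with TMM, 9 without Gm26917 and 4 with unstranded counts. Members under 1 CPM rested on few reads.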

Other observations

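Genes for receptor processing, which include those of the gamma-secretase complex that cuts Notch receptors, lay mostly below 0 between genotypes. With class in the fit, 9 of 12 had a log2 difference, TG+ minus TG-, below 0, with a median of -0.23, beside 0.00 over all genes. Of the 12, 7 had an unadjusted p under 0.05, against 9.67% of all genes, and none passed adjustment (smallest adjusted p = 0.503, edgeR). The subunit Aph1a had -0.32 ± 0.11 SE and the catalytic Psen2 -0.33 ± 0.13. The other 3 of the 12 were above 0, at most 0.25. Over all tested pathway genes outside the members, these 12 included, 34 of 55 were below 0. Of these 55, 13 had an unadjusted p under 0.05 in edgeR. Genes measured in the same libraries are not independent of each other. In the remaining class, with 6 TG+ and 2 TG- libraries, genotype and epithelial RNA cannot be told apart. This list was singled out after its values were seen. The 3 Fringe genes were also below 0, at -0.39 to -0.02, and the ligand-like Dner was at 0.79 ± 0.28 and the coactivator Maml2 at 0.35 ± 0.13, none of them past the adjusted threshold in edgeR.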
